A study of Mus musculus with 8 samples.

Results

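IRF-8 knockout was compared with wild type in all-lymphoid progenitors (ALP), using the 4 ALP arrays of a series of 8 arrays and every gene that could be tested. The rule took the 2 knockout and the 2 wild-type ALP arrays, and 9553 of the 18132 genes of the table passed the filter on detection. ALP were sorted from mouse bone marrow as cells without lineage markers, Ly6D or B220 and with c-kit, Flk2 and the interleukin 7 receptor alpha chain. All groups were C57BL/6 bone marrow, with the IRF-8 genotype given as wild type or knockout and the rest of the genotype not given. The other 4 arrays held common myeloid progenitors (CMP), 2 wild type and 2 knockout, and entered the fit so that the spread between replicates could be estimated. RNA came from 2000 to 15000 sorted cells per sample, was amplified and biotin labelled, and 750 ng was hybridised to Illumina MouseRef-8 bead chips. The design text names wild-type mice only, so the genotype was taken from each sample's label, and neither the age of the animals nor the structure of the knockout allele is given. Whether replicates were separate animals is not stated, so p-values measure the spread between these samples. The fit assumed a single spread per gene for all groups, but the replicate pairs were not equally tight. Wild-type ALP had the largest median standard deviation over genes, 0.454, and the other groups ranged from 0.255 to 0.311. The p-values can therefore understate the spread of the wild-type ALP pair.

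IRF-8 belongs to the interferon regulatory factors, binds DNA weakly alone and is known to act with partners such as the ETS factor PU.1 at composite sites. In bone marrow it is known for promoting the monocyte, dendritic cell and B cell programmes and for limiting the production of neutrophils. ALP are an early stage from which B, T, natural killer and dendritic cells can arise. The series title names neutrophil production and dendritic cell commitment as the subject, and the ALP comparison addresses them in cells of the lymphoid branch.

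The labelled cell type was set against its defining transcripts on the deposited log2 scale. Il7r, the receptor chain used in the sort, was at 9.21 and 8.86 in wild-type ALP and at 8.57 and 8.42 in knockout ALP, and was not detected on any CMP array. Rag1, the recombinase of antigen receptor genes, was at 8.80 and 9.19 in the wild type and 9.29 and 8.42 in the knockout, again with no detection in CMP. Flt3, which encodes Flk2, was at 10.57 and 10.43 against 10.01 and 10.21. Cd3e, Cd4, Itgam and Pax5, markers of mature B cells, T cells and myeloid cells, were detected on no ALP array. Ly6d, whose protein was used to gate cells out, was nevertheless detected on all 4 ALP arrays, at 6.59 and 6.53 in the wild type and 6.22 and 5.57 in the knockout. Dntt, the terminal transferase of lymphoid progenitors, was at 11.11 and 10.68 against 11.14 and 11.09. Of these markers, none tested passed the threshold between genotypes.

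The wild-type ALP arrays differed from each other more than any other pair of replicates. Between 11122 and 12749 probes were detected per array, the fewest on wild-type ALP array 2. Across genes that array correlated with the other 7 at 0.815 on average, wild-type ALP array 1 at 0.877 and the rest at 0.889 to 0.907. Between its own replicates wild-type ALP gave a correlation of 0.829 across genes, and knockout ALP one of 0.942. In all, 1103 genes lay more than 2 log2 units apart between the wild-type ALP arrays, and 213 did between the knockout ALP arrays. Limma's array weights were 0.46 for both wild-type ALP arrays and 1.45 for both knockout ones, since with 2 arrays a group the weights cannot say which of a pair stands apart. Every change in ALP rests on this pair, and results that depend on 1 array are given with and without it.

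**Figure D1:**
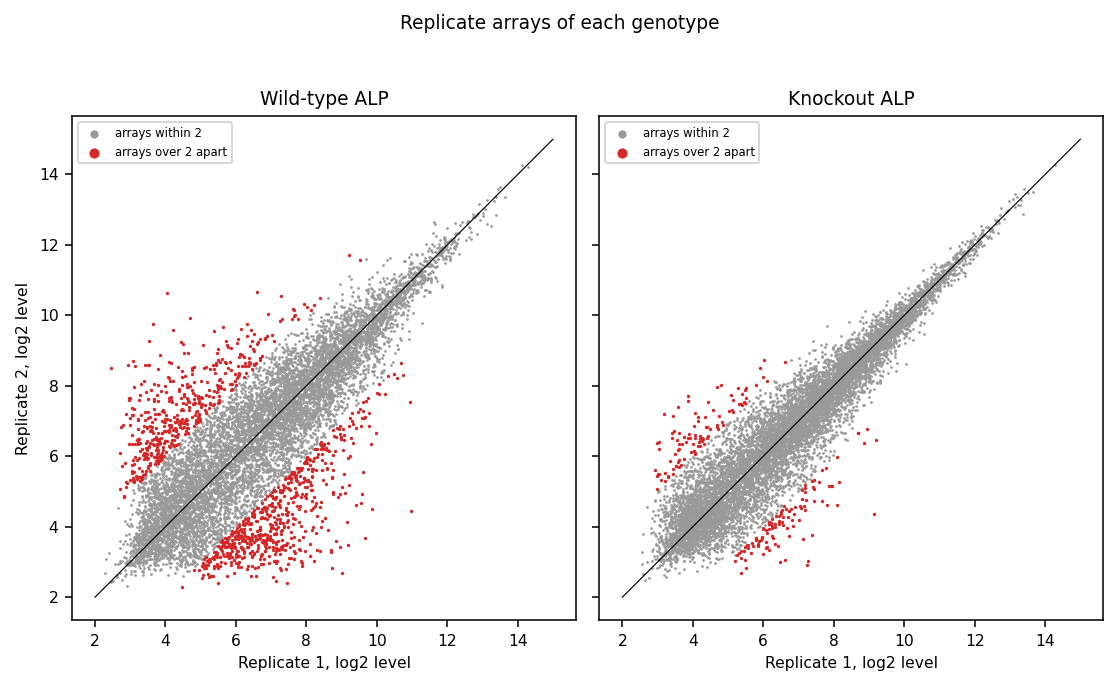
Deposited log2 level of each tested gene on replicate 1 (horizontal axis) and replicate 2 (vertical axis) of wild-type ALP (left) and knockout ALP (right), with the line of equality. Red points lie more than 2 apart, 1103 genes in the wild type and 213 in the knockout.

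The genes that lay furthest apart between the wild-type ALP arrays show what this spread looks like. BC053749 was at 10.96 on array 1 and 4.46 on array 2, with the knockout arrays between them at 7.37 and 7.01. Il17rb, a receptor chain for interleukin 25, was at 9.02 and 2.70, and the knockout arrays were at 8.73 and 8.04. In the other direction Fam124b was at 4.03 and 10.64, and Hcar2, a hydroxycarboxylic acid receptor, at 2.46 and 8.50. Each of the 12 genes named for this spread was missed by 1 of the 2 wild-type ALP arrays. Icmt, which methylates prenylated proteins, was at 8.94 and 3.42 in the wild type while all 6 other arrays lay between 8.37 and 9.47. None of these genes passed the threshold for a genotype difference, with adjusted p from 0.533 to 0.997 by limma.

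Irf8 itself was read at 10.95 and 10.87 in wild-type ALP and at 11.39 and 11.16 in knockout ALP. In CMP it was at 11.04 and 10.94 in the wild type and 10.80 and 10.79 in the knockout. Its change in ALP was 0.36 (SE 0.28, adjusted p = 0.639 by limma). In ALP the transcript read by the probe was thus not lower in the knockout, and both knockout arrays lay above both wild-type arrays. In CMP both knockout arrays lay below both wild-type arrays, with a change of -0.19 (SE 0.28, adjusted p = 0.979 by limma). Such a lack of overlap was seen in ALP for 42% of all genes. Where the probe sits against the altered part of the allele is not known here, so its level does not check the genotype.

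Across all 9553 genes, 13 passed an adjusted p of 0.05 between knockout and wild-type ALP (0.136%), 9 higher in the knockout (0.0942%) and 4 lower (0.0419%). With median scaling of the scanner signals the split was 11 higher and 1 lower, and only 5 of the 13 were among them. The genotypes did not overlap in any of the 13, which was also true of 4013 of all genes (42%), 22.2% with the knockout higher and 19.8% with it lower. An unadjusted p under 0.05 was reached by 1222 genes (12.8%), 692 higher (7.24%) and 530 lower (5.55%). In an array of sorted cells, more cells of a kind and more RNA per cell cannot be told apart, and this holds for every change given here. The genes that rose included lysosomal, granule and sugar-metabolising enzymes, and those that fell included a secreted partner of a Toll-like receptor relative.

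**Figure D2:**
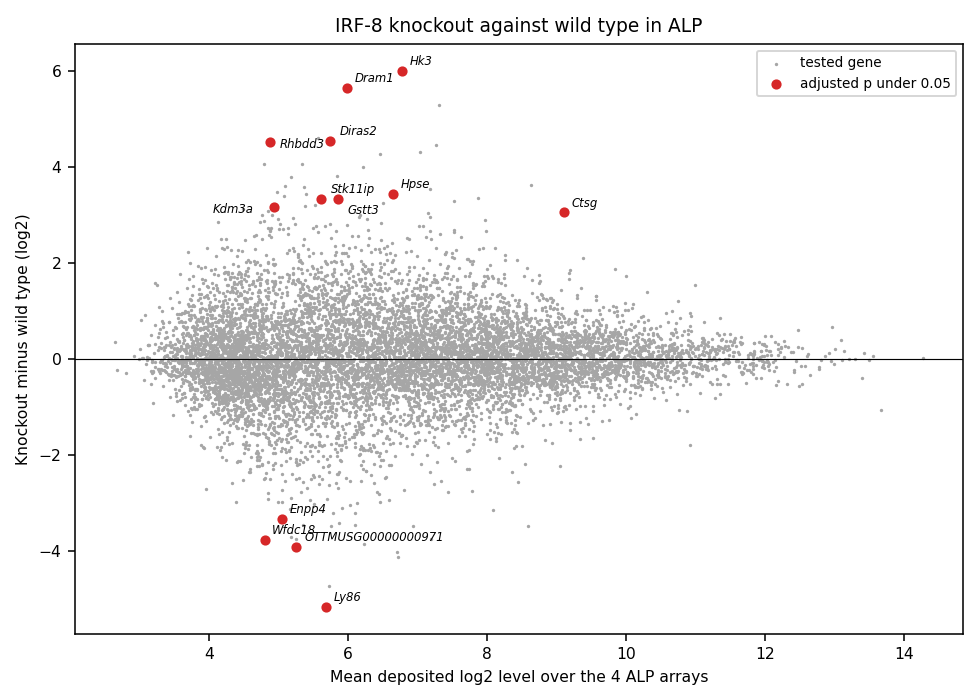
Knockout minus wild-type change in ALP (log2, vertical axis) against the mean deposited log2 level over the 4 ALP arrays (horizontal axis) for the 9553 tested genes. The 13 genes past the threshold are in red and named, 9 above 0 and 4 below, from Hk3 at 6.00 to Ly86 at -5.16.

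Genes of the lysosome and of granules were 3 of the 9 that rose. Dram1, a lysosomal membrane protein that promotes autophagy, was at 3.36 and 2.98 in wild-type ALP and at 8.20 and 9.42 in knockout ALP. It was not detected on either wild-type array, so its rise was at least 18.4-fold (log2 change 5.64, SE 0.44, adjusted p = 0.0185 by limma). Throughout, "at least" sets the mean of the brighter group against the lowest detected level of each dim array, or the gene's own level where that was higher. Hpse, which encodes heparanase, the enzyme that cuts heparan sulphate chains, was at 5.03 and 4.85 in the wild type and at 8.52 and 8.21 in the knockout. All 4 arrays detected it, and its rise was 3.43 in log2 units (SE 0.29, adjusted p = 0.0185 by limma). Ctsg, the neutrophil granule protease cathepsin G, was at 7.35 and 7.80 in the wild type and 10.56 and 10.69 in the knockout. It also was detected on all 4 arrays, with a change of 3.05 (SE 0.30, adjusted p = 0.0340 by limma).

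Hk3, a hexokinase that starts glycolysis and is abundant in myeloid cells, was at 4.48 and 3.07 in wild-type ALP and at 9.74 and 9.80 in knockout ALP. Its change of 6.00 (SE 0.50, adjusted p = 0.0185 by limma) was the largest of the 13, and since 1 of the 2 wild-type arrays missed it the size is uncertain. In CMP the levels of Hk3 were 10.45 and 9.86 in the wild type and 10.81 and 11.03 in the knockout, so knockout ALP lay close to the myeloid arrays and wild-type ALP far below them. The same order held for Dram1, at 9.36 and 9.42 in wild-type CMP, and for Ctsg, at 10.92 and 10.73. For Hpse the knockout ALP arrays lay above all 4 CMP arrays, which ranged from 7.50 to 7.86.

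The other 5 genes that rose were at or near the limit of detection in wild-type ALP. Rhbdd3, a membrane protein of the rhomboid family, was at 2.90 and 2.33 in wild-type ALP and 7.15 and 7.12 in knockout ALP, a rise of at least 5.77-fold (log2 change 4.52, SE 0.34, adjusted p = 0.0185 by limma). Diras2, a small GTPase of the Ras superfamily, went from 3.22 and 3.72 to 8.52 and 7.50, at least 10.5-fold (log2 change 4.54, SE 0.46, adjusted p = 0.0340 by limma). Both were undetected on the wild-type CMP arrays too and detected on both knockout CMP arrays, Rhbdd3 at 6.20 and 6.69 and Diras2 at 7.14 and 7.91. Stk11ip, which encodes a partner of the kinase LKB1, went from 4.13 and 3.77 to 7.23 and 7.33, at least 6.35-fold (adjusted p = 0.0253 by limma). It had the same detection pattern in CMP, at 3.81 and 3.52 in the wild type and 4.49 and 4.74 in the knockout.

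Gstt3, a glutathione transferase, was at 4.56 and 3.80 in wild-type ALP, detected on 1 array, and at 7.22 and 7.83 in knockout ALP (adjusted p = 0.0498 by limma). Kdm3a, a histone demethylase, was at 3.55 and 3.18 and then at 6.63 and 6.42, at least 3.77-fold higher in the knockout (adjusted p = 0.0498 by limma). With median scaling neither passed, at 1.05 for Gstt3 (adjusted p = 0.0917) and 0.76 for Kdm3a (adjusted p = 0.164, both by limma). Nor did Dram1, Diras2, Stk11ip, Enpp4, OTTMUSG00000000971 and Wfdc18 pass with that scaling, with adjusted p from 0.0676 to 0.107 by limma. With the deposited values Gstt3 and Kdm3a sat just inside the threshold. Ccl9, a chemokine of myeloid cells, sat just outside it, with 7.41 and 6.22 in the wild type, 10.28 and 10.60 in the knockout and a change of 3.62 (SE 0.43, adjusted p = 0.0561 by limma). Its CMP arrays ranged from 11.14 to 11.68.

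**Figure D3:**
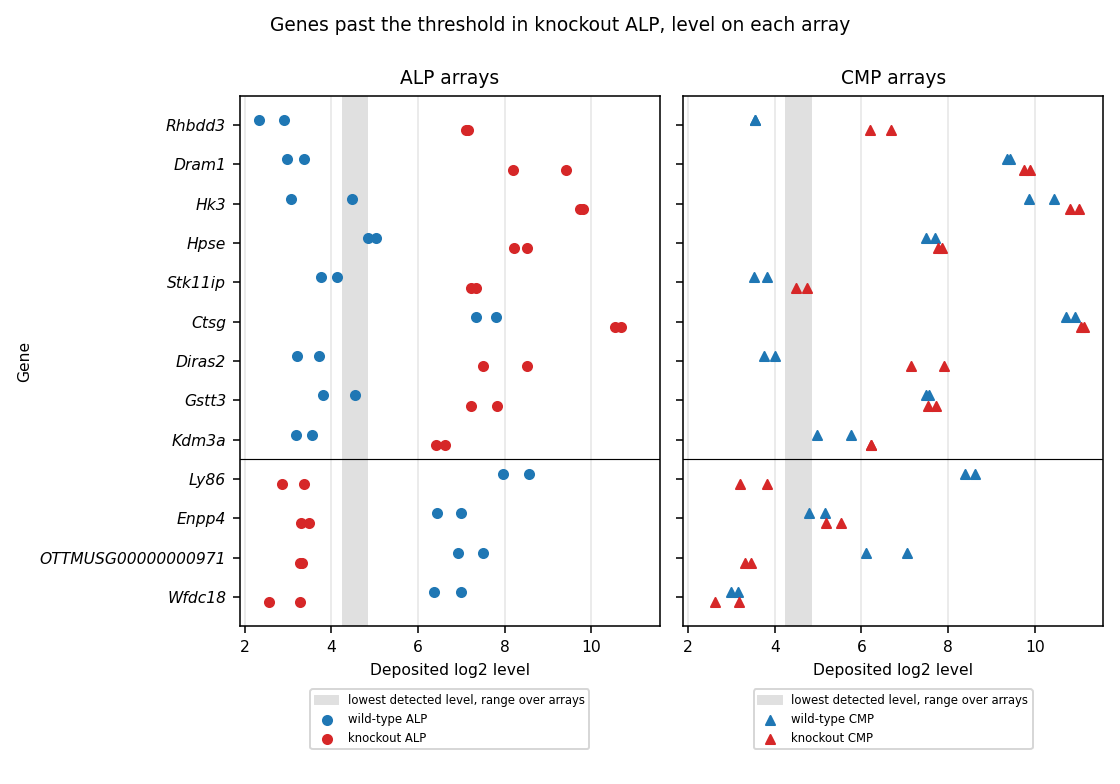
Deposited log2 level on each ALP array (left) and CMP array (right) of the 9 genes that rose (above the line) and the 4 that fell (below it) in knockout ALP. Blue marks wild type and red knockout, and the grey band is the range over the 8 arrays of the lowest level that counted as detected, 4.26 to 4.83.

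Ly86 fell furthest in knockout ALP. It encodes a secreted partner of the Toll-like receptor relative Cd180, and the pair adjusts responses to bacterial lipopolysaccharide. Ly86 was at 8.56 and 7.97 in wild-type ALP and at 2.86 and 3.37 in knockout ALP, where neither array detected it, a fall of at least 15.7-fold (log2 change -5.16, SE 0.39, adjusted p = 0.0185 by limma). CMP showed a change of -4.99 (adjusted p = 0.00892 by limma, 1 of 7 genes past the threshold in CMP, 0.0733%), from 8.62 and 8.38 to 3.20 and 3.83. Cd180 itself, named after its values were seen, had a value of 0.87 in ALP (SE 0.45, adjusted p = 0.489 by limma), with 10.31 and 9.25 in the wild type and 10.90 and 10.39 in the knockout.

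The other 3 genes that fell were likewise detected on both wild-type ALP arrays and on neither knockout array. Enpp4, a surface phosphodiesterase of nucleotides, went from 6.43 and 6.99 to 3.30 and 3.48, at least 5.33-fold lower (log2 change -3.32, SE 0.34, adjusted p = 0.0340 by limma). In CMP it did not share this direction, with 4.79 and 5.15 in the wild type and 5.52 and 5.19 in the knockout. OTTMUSG00000000971, listed under that identifier alone, went from 6.92 and 7.51 to 3.32 and 3.29, at least 7.56-fold lower (adjusted p = 0.0340 by limma). In CMP it was at 7.05 and 6.11 in the wild type and at 3.46 and 3.31 in the knockout (change -3.19, adjusted p = 0.0789 by limma). Wfdc18, a secreted protein with the fold of protease inhibitors, went from 7.0 and 6.37 to 2.56 and 3.28, at least 5.25-fold lower (adjusted p = 0.0390 by limma), and was detected on no CMP array.

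Next in order of p, and not past the threshold, stood Ctsh, the lysosomal protease cathepsin H, at 6.66 and 6.17 in the wild type and 3.42 and 3.95 in the knockout (change -2.73, SE 0.34, adjusted p = 0.0600 by limma). H2-Aa, the class II alpha chain, was at 6.02 and 7.44 against 3.0 and 3.65 (change -3.40, SE 0.51, adjusted p = 0.0969 by limma). Both were undetected on the knockout arrays of ALP and of CMP alike. Cep170, a centrosomal protein, had a change of -3.48 (adjusted p = 0.0746), Mxd3, a MAX partner, -2.97 (0.0833), Khdc3 -2.91 (0.0865) and Ccdc90b -2.98 (0.0989), all by limma. Genes were named here only where both knockout arrays lay below both wild-type arrays, which held for 19.8% of all genes.

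All 9 genes that rose in ALP had a CMP change above 0, from 0.10 for Gstt3 to 3.65 for Diras2, and 3 of the 4 that fell had one below 0. The ALP and CMP comparisons share no array, though all were normalized together. Among all genes 49.5% had a CMP change above 0, and among the 692 with an unadjusted p under 0.05 and higher in knockout ALP the share was 66.3%. Of the 530 lower in knockout ALP, 59.6% had a CMP change below 0, against 50.5% of all genes. Across the 9553 genes the 2 changes correlated at 0.192, a description over genes, which are not independent replicates.

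The genotype effect differed between ALP and CMP for 1 gene of 9553 (0.0105%) by limma, while 733 reached an unadjusted p under 0.05 (7.67%). That gene was P2ry6, a receptor for uridine diphosphate. It was at 3.25 and 3.79 in wild-type ALP, undetected, and at 5.43 and 5.65 in knockout ALP. In CMP the order was the opposite, 8.25 and 8.70 in the wild type and 3.38 and 3.20, undetected, in the knockout. The change in ALP was 2.02 (SE 0.34, adjusted p = 0.115 by limma) and that in CMP -5.18 (adjusted p = 0.00507). The difference between them was 7.20 on the log2 scale (SE 0.48, adjusted p = 0.0190 by limma), at least 4.99 with undetected arrays set at their lowest detected level. It stayed past the threshold without wild-type ALP array 2 (7.47, adjusted p = 0.0414) and not without any other single array, where it was 6.93 to 7.43 with adjusted p from 0.0527 to 0.278 by limma.

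Id2, an inhibitor of helix-loop-helix factors that dendritic and innate lymphoid cells need, came next for that difference and did not pass (4.87, SE 0.43, adjusted p = 0.0636 by limma). In ALP it was at 5.57 and 6.03 in the wild type and at 5.95 and 5.92 in the knockout, so the ALP groups overlapped. Lgals3, which encodes galectin 3, was detected on no ALP array, at 2.76 and 3.02 against 3.05 and 2.85. The remaining ones were Rap2a, a small GTPase, Dram1 and Pcyox1l, each with an adjusted p of 0.139 for the difference by limma. Rap2a was at 3.72 and 2.90 in wild-type ALP and 6.36 and 6.43 in knockout ALP, at least 3.45-fold higher in the knockout (adjusted p = 0.0600 by limma). Pcyox1l was at 3.66 and 2.95 against 6.77 and 7.03, at least 4.89-fold (adjusted p = 0.0600 by limma).

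Detection gave a view of the comparison that does not rest on the fitted spread. Of the tested genes 322 were detected on both knockout and neither wild-type ALP array (3.37%), and 134 the other way round (1.4%). In CMP the same counts were 180 (1.88%) and 132 (1.38%). On the wild-type CMP arrays 111 of the 322 were detected on both and 103 on neither. Their CMP change was above 0 in 51.6%, against 49.5% of all genes. Of the 13 genes past the threshold 5 belonged to the 322 and 4 to the 134. The number of probes detected also differed, at 12326 and 11122 in wild-type ALP against 12501 and 12749 in knockout ALP, and 734 genes were missed on wild-type ALP array 2 alone, against 238 on array 1 alone. The part of this difference in the counts of 322 and 134 was not tested.

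Genes of the neutrophil primary granules, the first granules to form in the myeloid branch, had more members above 0 than below in knockout ALP. Of 20 genes on the list 17 were tested, and 11 were above 0 and 6 below, where 51.5% of all genes tested were above 0. Ctsg was the 1 member past the threshold, in the higher direction, beside 0.0942% of all genes. An unadjusted p under 0.05 was reached by 5 members in the higher direction and 1 in the lower, beside 7.24% and 5.55% of all genes. The median change was 0.54, beside 0.02 over all genes tested, and ran from 0.15 with median scaling to 0.64 without wild-type ALP array 1 over the alternatives. It was 0.27 without knockout ALP array 1 and 0.35 without knockout array 2. With median scaling 24 of the 29 list medians lay nearer 0, so the range over the alternatives is given beside each median. The list was written with results of these data known and does not give independent support for its direction.

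Its members differed in size. Prtn3, proteinase 3, was at 6.95 and 5.43 in the wild type and 9.23 and 9.87 in the knockout, a change of 3.36 (SE 0.52, adjusted p = 0.100 by limma). Mpo, myeloperoxidase, was at 10.11 and 10.32 against 11.75 and 11.79 (change 1.55, SE 0.28, adjusted p = 0.116). Neutrophil elastase, listed as ELA2, was at 3.94 and 6.17 against 7.18 and 8.59 (change 2.83, SE 0.80, adjusted p = 0.233). In all 3 both knockout arrays lay above both wild-type arrays and below all 4 CMP arrays. Serpinb1a, an inhibitor of these proteases, had a change of 1.17 (adjusted p = 0.236), while Mgst2, a microsomal glutathione transferase, had -0.96 (adjusted p = 0.236, all by limma), both named after their values were seen. Mcpt8, a basophil protease of the same serine protease family, was at 6.44 and 6.52 against 8.03 and 8.15 (change 1.61, SE 0.27, adjusted p = 0.115 by limma).

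The late granule and receptor genes of mature neutrophils were largely out of range. Of 27 on the list 26 were in the table and 11 were tested. S100a8 and Lcn2, calprotectin and lipocalin genes abundant in mature neutrophils, were detected on no ALP array, and S100a9 and Ngp on 1 wild-type ALP array each and no knockout one. Camp and Ltf, also stored in late granules, were each detected on 1 knockout array. The median change of the 11 was 0.03, at -0.27 without wild-type ALP array 1 and 0.42 without array 2. Their mean level per array was 4.22 and 4.95 in wild-type ALP and 4.47 and 4.42 in knockout ALP, so the genotypes overlapped. Fpr2, a formyl peptide receptor, had a change of -2.36 (SE 0.60, adjusted p = 0.210 by limma), at 4.85 and 6.70 in the wild type and undetected in the knockout.

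Other myeloid groups also had medians above that of all genes. Of 12 tested monocyte and macrophage genes 10 were above 0, beside 51.5% of all genes tested. Their median was 0.56 (range 0.10 with median scaling to 0.96 without knockout ALP array 1). Only 3 of the 12 were detected on all 4 ALP arrays, and 3 were detected on none, so the signs of those rest on undetected levels. Ly86 was the 1 that passed, in the lower direction, beside 0.0419% of all genes. F13a1, the coagulation factor XIII A chain of monocytes, was at 3.66 and 5.0 in wild-type ALP and 8.12 and 9.06 in knockout ALP (change 4.26, SE 0.55, adjusted p = 0.0638 by limma). Cx3cr1, the fractalkine receptor, was at 4.52 and 6.25 against 7.87 and 7.60 (change 2.35, adjusted p = 0.199 by limma). Cd14 and C1qa, markers of monocytes and macrophages, were not detected on enough arrays to be tested. Mean level over the 12 genes was 4.86 and 5.02 in the wild type and 5.43 and 5.74 in the knockout. All 5 tested genes of the phagocyte NADPH oxidase were above 0 (median 0.53, range 0.36 to 0.77, 0 past the threshold), led by Ncf1 at 0.99 (adjusted p = 0.261 by limma).

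**Figure D4:**
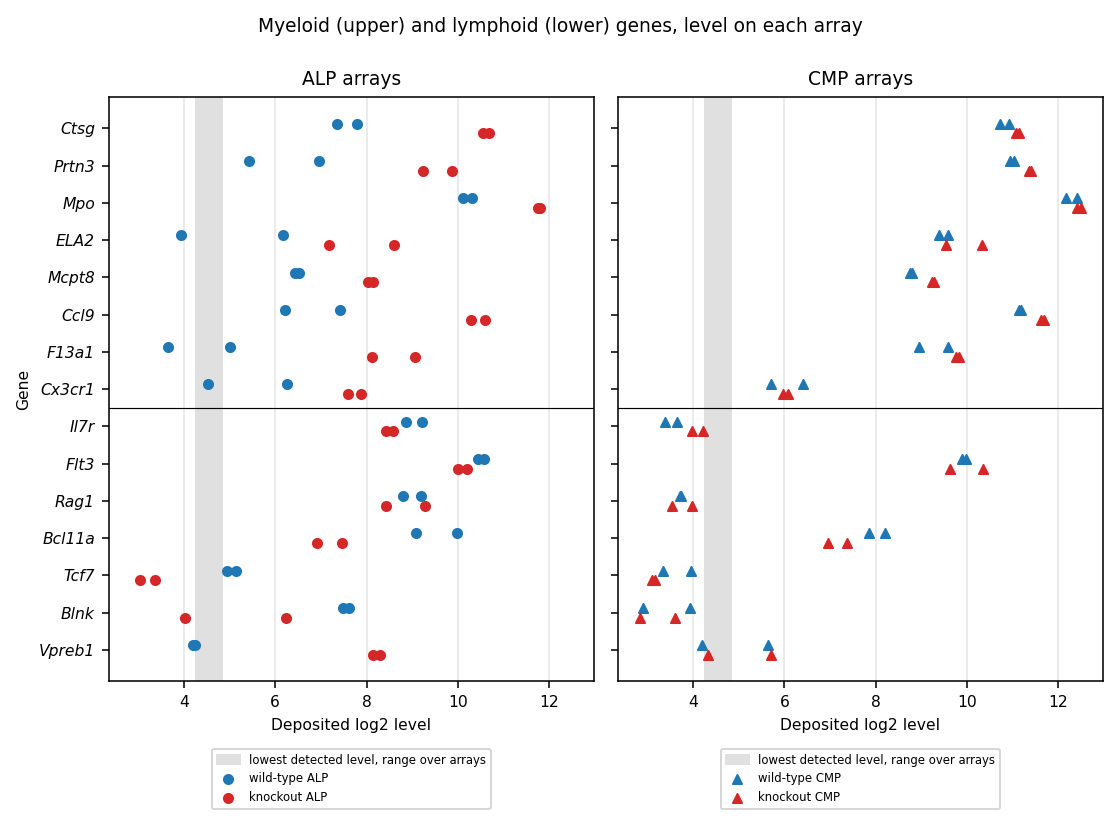
Deposited log2 level on each ALP array (left) and CMP array (right) of 8 myeloid genes (above the line) and 7 lymphoid genes (below it). Both knockout ALP arrays (red) lie above both wild-type arrays (blue) in each of the 8 myeloid genes and in Vpreb1, below them in Il7r, Flt3, Bcl11a, Tcf7 and Blnk, and among them in Rag1. The genes shown were picked from longer lists. Without overlap, the primary granule list had 8 members higher and 3 lower in knockout ALP, and the monocyte and macrophage list 6 and 2. The mast cell, basophil and eosinophil list had 2 higher and 1 lower. Early lymphoid genes had 4 higher and 6 lower, B lymphoid genes 2 and 3, and T lymphoid genes 1 and 5. Of all genes, 22.2% lay higher and 19.8% lower without overlap.

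Genes of early lymphoid cells gave no call and went both ways. Of 26 tested members 11 were above 0 and 15 below, with a median of -0.16 (range -0.21 to -0.05). Bcl11a, a zinc finger factor required for B cell and plasmacytoid dendritic cell development, was at 9.08 and 9.99 in the wild type and 6.91 and 7.47 in the knockout (change -2.35, SE 0.42, adjusted p = 0.116 by limma). Blnk, an adaptor of the pre-B cell receptor, had -2.42 (SE 0.75, adjusted p = 0.260 by limma), with knockout arrays at 6.24 and 4.02. Foxo1, a factor that acts upstream of Rag1 and Il7r, had 2.27 (SE 0.53, adjusted p = 0.176 by limma), from 4.40 and 3.65 to 5.83 and 6.76.

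B lymphoid genes gave no call either. Vpreb1, a chain of the surrogate light chain, was undetected in wild-type ALP at 4.19 and 4.23 and was at 8.14 and 8.29 in knockout ALP. The bound on its difference was at least 12.1-fold higher in the knockout (log2 change 4.0, SE 0.61, adjusted p = 0.0969 by limma). Pou2af1, a coactivator of B cells, had a change of 1.70 (adjusted p = 0.238 by limma), also undetected in the wild type. The median over the 10 tested B lymphoid genes was -0.14, and it was -0.31 without wild-type ALP array 1, 0.12 without array 2, -0.53 without knockout ALP array 1 and 0.33 without knockout array 2. Pax5, Blk and Spib were among the 11 members of the table not tested.

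T lymphoid genes had the lowest median of the 29 lists with the deposited values. It was -0.74 over 9 tested members, 6 below 0 and 3 above, with 0 past the threshold. An unadjusted p under 0.05 was reached by 2 in the lower direction and 0 in the higher, beside 5.55% and 7.24% of all genes. Tcf7, the T cell factor that starts the T lineage programme, was at 4.94 and 5.14 in wild-type ALP and undetected at 3.36 and 3.03 in knockout ALP (change -1.84, SE 0.33, adjusted p = 0.116 by limma). Thy1, a surface marker of T and stem cells, was at 6.89 and 6.52 against 4.15 and 3.74 (change -2.76, SE 0.92, adjusted p = 0.286 by limma). The list median ran from -1.07 without wild-type ALP array 1 to -0.18 with median scaling. The defining genes Cd3d, Cd3e and Cd3g of T cells were not past the filter. Mean level over the 9 genes was 6.15 and 6.05 in the wild type against 5.40 and 5.31 in the knockout. Il18r1, the interleukin 18 receptor of innate lymphoid cells, had -2.05 (SE 1.05, adjusted p = 0.489 by limma), with 8.91 and 9.47 against 6.57 and 7.72.

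Dendritic cell genes, whose lineages depend on IRF-8, gave no call. Plasmacytoid dendritic cell genes had a median of -0.47 over 15 tested members, 13 below 0 (range -0.56 to -0.18, the latter with median scaling). Rnase6, a ribonuclease, was at 9.78 and 10.88 against 7.20 and 6.52 (change -3.47, SE 0.54, adjusted p = 0.100 by limma), and Pld4, a nuclease of endosomes, at 7.58 and 7.73 against 4.03 and 6.15 (change -2.57, adjusted p = 0.213 by limma). Siglech, a surface marker of the lineage, was detected on 1 wild-type array and was not tested. Mean level over the 15 genes was 7.37 and 7.35 in the wild type and 6.48 and 6.60 in the knockout. Conventional dendritic cell genes had a median of 0.14, which was -0.09 with neqc values, -0.05 with median scaling and -0.07 without wild-type ALP array 1. The smallest p among them was that of Itgax, the integrin CD11c, at 6.11 and 7.06 against 7.94 and 8.60 (change 1.68, SE 0.46, adjusted p = 0.222 by limma).

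Genes of MHC class II presentation, which display peptides to helper T cells, had values on both sides of 0 and none passed. The median over 15 tested members was -0.42, with 6 above 0 and 9 below. Leaving out any 1 ALP array brought it nearer 0, to between -0.27 and -0.08, and median scaling gave -0.07. H2-Aa had a value of -3.40, while its partner chain H2-Ab1 had 2.03 (SE 0.44, adjusted p = 0.158 by limma), at 6.14 and 7.42 in the wild type and 8.83 and 8.80 in the knockout. H2-Oa, a chain that restrains peptide loading, had 1.97 (adjusted p = 0.216), and Rfxap, a factor that binds class II promoters, -2.28 (adjusted p = 0.231, both by limma). In CMP the same H2-Ab1 arrays ran the other way, 11.69 and 11.63 against 8.75 and 8.50 (change -3.04, adjusted p = 0.0975 by limma). The probe values of Cd74, the invariant chain, could not be linked, so it was not tested. It is named after its values were seen, which were 7.28 and 7.59 in wild-type ALP and 5.67 and 6.11 in knockout ALP.

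Interferon response genes, many of which carry sites for factors of the IRF family, lay more often below 0 than above and gave no call. Of 38 tested members 12 were above 0 and 26 below, with a median of -0.20 (range -0.37 to -0.20). An unadjusted p under 0.05 was reached by 7 in the lower direction and 2 in the higher, beside 5.55% and 7.24% of all genes. Gbp3, a guanylate binding protein, was at 6.47 and 7.15 against 4.81 and 5.26 (change -1.78, SE 0.42, adjusted p = 0.181 by limma). Mx2, an antiviral GTPase, also had -1.78 (adjusted p = 0.174), and Igtp -1.49 (adjusted p = 0.231). Ifi27 had the widest difference of those named, -2.93 (SE 0.76, adjusted p = 0.210 by limma). Among the interferon regulatory factors Irf3 had a value of 1.67 (SE 0.58, adjusted p = 0.309 by limma), with wild-type arrays at 7.10 and 5.48. The median of the 8 tested members of that family was 0.40, from -0.04 without wild-type ALP array 2 to 0.73 without array 1.

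Transcription factors of blood cells showed no common direction (median 0.04, and -0.02 with median scaling, over 47 tested, 27 above 0 and 20 below, 0 past the threshold). Egr1, an immediate early factor, was at 11.79 and 11.81 in the wild type and 10.18 and 9.87 in the knockout (change -1.78, SE 0.36, adjusted p = 0.142 by limma). Mycn had a change of -1.92 (adjusted p = 0.143) and Mycl, its relative, -4.73 (SE 0.78, adjusted p = 0.114, both by limma). Mycl was at 7.60 and 8.58 in the wild type and undetected in the knockout, at least 13.9-fold lower there as a bound. Spi1, which encodes PU.1, and Cebpa, a factor of granulocyte precursors, are named after their values were seen, for their part in the myeloid programme. Spi1 was at 7.07 and 5.98 in wild-type ALP and 8.21 and 8.43 in knockout ALP (change 1.79, SE 0.43, adjusted p = 0.186 by limma), and Cebpa was detected on no ALP array.

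Genes of stem and multipotent progenitors had a median of -0.42 over 20 tested members, 14 below 0 (range -0.64 without knockout ALP array 1 to -0.21 without knockout array 2). An unadjusted p under 0.05 was reached by 6 in the lower direction and 0 in the higher, beside 5.55% and 7.24% of all genes. Hoxa5, a homeobox gene, was at 8.64 and 9.12 against 7.82 and 7.52 (change -1.21, SE 0.41, adjusted p = 0.296 by limma). Heat shock and immediate early genes, known to respond to stimulation and cell handling, had a median of -0.44 over 27 members, 21 below 0, with 7 at an unadjusted p under 0.05 in the lower direction and 1 in the higher (5.55% and 7.24% of all genes). Dropping wild-type ALP array 1 gave -0.15 and dropping array 2 gave -0.73. Mean level over the 27 genes was 8.40 on wild-type ALP array 1 and 7.76 on array 2, against 7.51 and 7.54 in the knockout. Ier2 was at 5.07 and 5.15 in the wild type and undetected in the knockout (change -1.89, adjusted p = 0.158), and Btg2, an inhibitor of proliferation, had -1.32 (adjusted p = 0.217, both by limma).

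Signalling genes showed single large values in both directions. In the Toll-like receptor pathway Ly86 was the 1 of 19 tested that passed, in the lower direction, beside 0.0419% of all genes. It is the same gene that passed on the monocyte and macrophage list. Irak4, a kinase at the start of the pathway, was at 4.88 and 4.92 against 6.67 and 6.76 (change 1.82, SE 0.29, adjusted p = 0.104 by limma), and Myd88, its adaptor, had 2.26 (SE 0.70, adjusted p = 0.258 by limma). Ly96, the partner of Tlr4, had 1.66 (adjusted p = 0.229 by limma). Among chemokines and attractant receptors Ccl4 was at 9.39 and 8.25 against 6.27 and 5.84 (change -2.76, SE 0.48, adjusted p = 0.115 by limma), opposite to Ccl9. Hrh1, a histamine receptor, had -2.22 (adjusted p = 0.161 by limma) and was undetected in the knockout. The median of these 16 genes was -0.32, and 0.44 without wild-type ALP array 2. Cytokine and growth factor receptors had a median of 0.27 over 28 members (range 0.09 to 0.32) and 0 past the threshold, with Csf1r, the receptor for macrophage colony-stimulating factor, at 3.73 and 4.60 against 5.05 and 5.92 (change 1.32, adjusted p = 0.301) and Il10rb at -1.38 (adjusted p = 0.229, both by limma).

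On the list of lysosomal proteases and hydrolases, which also held the membrane protein Dram1, 29 genes were tested. Of these 3 passed, Dram1, Hpse and Ctsg, all higher, beside 0.0942% of all genes. Ctsg also stood on the primary granule list. The lysosomal list was written with results of these data known, so this share gives no independent support. The list's median was 0.18 (range 0.01 with median scaling to 0.34), with 16 members above 0 and 13 below. Ctsz, a carboxypeptidase, had a value of 1.72 (adjusted p = 0.142) and Gaa, acid alpha-glucosidase, 1.59 (adjusted p = 0.158, both by limma), and both are named after their values were seen. Glycolysis genes had a median of 0.26 over 18 members (range 0.19 to 0.38), with 13 above 0, beside 51.5% of all genes tested. Hk3 was the 1 past the threshold, in the higher direction, beside 0.0942% of all genes. Aldoa, an aldolase, was at 9.04 and 8.21 against 10.02 and 9.91 (change 1.34, SE 0.36, adjusted p = 0.216 by limma), and Gapdh at 8.36 and 8.60 against 9.10 and 9.17 (change 0.65, adjusted p = 0.441 by limma).

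Cell cycle genes had a median of 0.17 over 38 tested members (range 0.08 to 0.28), 25 above 0 and 0 past the threshold. Ccnd1, cyclin D1, was at 9.42 and 8.38 in the wild type and 10.87 and 10.68 in the knockout (change 1.87, SE 0.40, adjusted p = 0.154 by limma). Ccne2, a cyclin of DNA synthesis, had 1.43 (adjusted p = 0.228) and Cdk6, a partner of D cyclins, 1.39 (adjusted p = 0.296, both by limma). In the apoptosis family Bmf, a cell death activator, was undetected in the wild type at 2.89 and 2.98 and was at 4.71 and 4.95 in the knockout (change 1.89, adjusted p = 0.212 by limma). Ribosomal protein genes had a median of 0.01 over 47 members (range -0.10 to 0.09), and Rplp0 had the smallest p among them, with a change of 1.73 (adjusted p = 0.142 by limma).

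Markers of cell types that a sort of ALP should leave out were read with the same fit. Stromal and endothelial genes had 4 of 20 members tested, with Cdh5 and Col1a1 detected on no ALP array and a median of -0.11, which was 0.05 with neqc values and -0.33 with the stricter filter. Pecam1, an adhesion molecule of endothelium that blood cells also carry, at 9.11, 9.69, 9.22 and 8.64, and Igfbp4, at 10.37, 10.17, 10.44 and 10.32, were detected on all 4 ALP arrays. Megakaryocyte and erythroid genes had 14 of 30 tested and a median of -0.43 (range -0.51 to -0.13). Pf4 was detected on no ALP array, while 6 members were detected on all 4, among them Gp9, a platelet glycoprotein, at 12.23, 12.62, 11.92 and 11.85. Mature B and plasma cell genes had 8 of 20 tested, a median of -0.34 (range -0.42 to -0.08), and Fcrl1 with the smallest p (change -1.50, adjusted p = 0.258 by limma). Mast cell, basophil and eosinophil genes had 6 of 20 tested, with a mean level of 4.51 and 5.65 in wild-type and 4.98 and 5.47 in knockout ALP. None of these lists had a member past the threshold. The part of such cells in the changes of other genes was not tested.

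**Figure D5:**
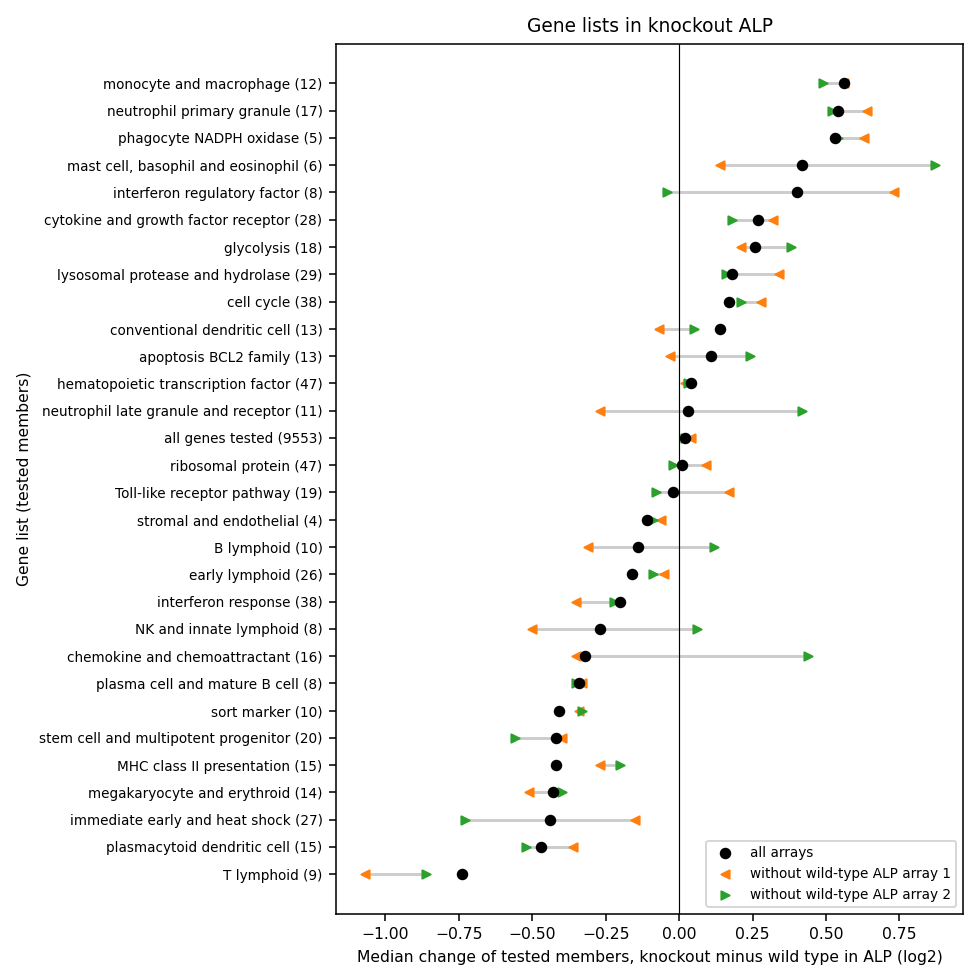
Median change of the tested members of each of the 29 gene lists and of all genes (knockout minus wild type in ALP, log2), with the number of members in brackets. Black points use all arrays and triangles leave out 1 wild-type ALP array; the medians run from -0.74 for T lymphoid to 0.56 for monocyte and macrophage genes, beside 0.02 for all genes tested. With other scaling the signs of the conventional dendritic cell, hematopoietic transcription factor, Toll-like receptor and stromal medians turned.

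Promoters of the 13 genes past the threshold, of the genes next to them by p named as not past it, and of the 4 primary granule genes named by smallest p were read from RefSeq (build GRCm38.p6), as windows from 250 bases before to 50 after a start site. Of 23 genes 20 were matched. The letters searched on both strands were GGAA and GAAA with any 2 bases between for the ETS-IRF composite, GAAA and GGAA so spaced for its reverse arrangement, GAAA and GAAA so spaced for the interferon-stimulated response element, GAGGAAGT for a PU.1 site and TTGCNNAA for a C/EBP site. They are shown for genes whose values were described, because IRF-8 is known to bind such composites. The ETS-IRF letters were found in Hpse, Diras2 and Ccdc90b, and in 2.72% of all 32851 promoter windows. The PU.1 letters were found in Mpo and Prtn3 and in 3.2% of all windows, and the C/EBP letters in Dram1 and in 10.8%. Neither the interferon-stimulated element (3.44% of windows) nor the reverse composite (2.8%) was found among the 20. The windows run 5′ to 3′ on the gene's strand in lower case, with the matching letters in capitals, Hpse at chr5:100719667-100719966 (minus strand), Diras2 at chr13:52530787-52531086 (minus strand), Prtn3 at chr10:79879417-79879716 (plus strand) and Mpo at chr11:87793534-87793833 (plus strand).
Hpse: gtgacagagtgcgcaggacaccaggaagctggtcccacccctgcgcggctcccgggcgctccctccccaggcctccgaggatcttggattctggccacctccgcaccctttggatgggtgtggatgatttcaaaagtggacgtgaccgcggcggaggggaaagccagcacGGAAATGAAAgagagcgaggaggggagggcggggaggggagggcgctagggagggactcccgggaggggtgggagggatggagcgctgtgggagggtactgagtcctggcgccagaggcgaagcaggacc
Diras2: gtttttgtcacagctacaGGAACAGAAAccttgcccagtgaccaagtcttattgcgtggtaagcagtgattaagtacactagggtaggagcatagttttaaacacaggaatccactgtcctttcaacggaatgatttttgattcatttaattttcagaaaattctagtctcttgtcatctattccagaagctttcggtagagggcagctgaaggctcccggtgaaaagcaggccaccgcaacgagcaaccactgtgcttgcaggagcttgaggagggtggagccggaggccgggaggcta
Prtn3: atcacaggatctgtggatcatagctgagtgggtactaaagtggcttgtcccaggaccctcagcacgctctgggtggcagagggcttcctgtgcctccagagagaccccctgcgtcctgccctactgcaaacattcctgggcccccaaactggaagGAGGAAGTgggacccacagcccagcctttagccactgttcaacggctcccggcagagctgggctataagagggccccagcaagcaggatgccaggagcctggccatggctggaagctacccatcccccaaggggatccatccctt
Mpo: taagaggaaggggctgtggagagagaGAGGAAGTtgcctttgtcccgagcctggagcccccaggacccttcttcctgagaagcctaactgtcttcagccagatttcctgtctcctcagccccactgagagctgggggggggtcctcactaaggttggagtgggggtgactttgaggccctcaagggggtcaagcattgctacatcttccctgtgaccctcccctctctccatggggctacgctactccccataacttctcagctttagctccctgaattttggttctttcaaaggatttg
A match of letters is a description of the window and shows neither binding nor a cause. Hpse and Diras2, which carry the composite letters, rose at 3.43 and 4.54 on the log2 scale, while Ccdc90b, which carries them on the opposite strand, had a value of -2.98.

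The number of genes that passed turned on single arrays. Without wild-type ALP array 1, so that array 2 alone stood for the wild type, 505 genes passed by limma, among them all 13. Without wild-type ALP array 2 there were 5, and 3 of the 13 were among them, Hk3, Ly86 and Rhbdd3. Leaving out any 1 of the other 6 arrays left 0 past the threshold by limma, with 764 to 1151 genes at an unadjusted p under 0.05. With the 4 ALP arrays alone there were 0 as well (905 at an unadjusted p under 0.05), and with array weights there were 3, again Hk3, Ly86 and Rhbdd3. The direction of the 13 held in every one of the 16 alternatives, but only neqc and median scaling could have turned it. The others used the same log2 values, and where groups do not overlap, leaving out 1 array cannot turn a change. Across the leave-1-out fits the change of Hk3 ran from 5.29 to 6.70, that of Rhbdd3 from 4.23 to 4.80, that of Ly86 from -5.45 to -4.86 and that of Ctsg from 2.82 to 3.27. The sizes themselves shrank when the scanner signals were scaled to a common median without subtracting background, to 2.69 for Hk3, 1.27 for Rhbdd3, 2.26 for Ctsg and -1.78 for Ly86.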

How the data were processed

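The series holds 8 Illumina bead arrays, 2 in each of 4 groups (wild-type and knockout ALP and CMP), and groups and replicate numbers come from the labels. The values of the deposited gene table are log2 levels; their pattern shows that the authors adjusted background, made the arrays equal by quantile and gave 1 value a gene, with software not given in the sources used here. A deposited scanner table holds an unnormalized signal intensity for each probe and array. Its deposited detection p-values are monotone in the signal within each array, and 1 wild-type CMP column of them has no replicate number in its header; it was taken as replicate 1 because the other header names replicate 2.

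The scanner table has no gene names, so probes were tied to genes by equal values over the 8 arrays within 0.0003 on the log2 scale, after the normalization was rebuilt by rank. This linked 17619 of 18132 genes (97.2%) and 20878 of 25697 probes. Of 2000 genes with shuffled values 0 were linked to a single probe, of 300 none to a mean of 2 probes and of 300 of 3 or more probes 4 were linked. Old names of 2660 genes were replaced by current symbols, and 1167 without a unique one were kept. A gene was detected on an array if any linked probe had a detection p under 0.05, and genes detected on at least 2 of the 8 arrays were tested (9553), so a member of a list can pass through 1 group alone.

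One limma 3.58.1 model (R 4.3.3) with 4 group means was fitted to the deposited log2 values (4 residual and 2.707 prior degrees of freedom), two-sided, with p-values adjusted over all tested genes by the Benjamini-Hochberg method at 0.05. Levels are on the log2 scale of the deposited table, and levels of different genes were not compared, since each rests on its own probes. The number of arrays limits the precision. Genes named are Irf8, at most 15 genes in each direction past the threshold with no overlap between the groups, filled to 10 each way by p, 6 for the difference between ALP and CMP, up to 4 of each list by p, and 12 for the spread of the wild-type ALP arrays; others are named as markers of the labelled cell type or were picked with their values known, as stated beside them. The members and the 29 lists were chosen with earlier results of these data known, and no pattern is independent support for them. The deviations of same-numbered arrays correlated at 0.00717 between the ALP groups, which cannot show whether the numbers mark a pairing. The main fit used no pairing. The 16 alternatives covered neqc (offset 16), median scaling, the filter, the arrays in the fit, array weights, an intensity trend, a replicate block and leaving out each array. The fit was tested on simulated data. Scripts used Python 3.11.15, numpy 2.4.6, pandas 2.3.3 and matplotlib 3.10.9.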

Additional observations from a re-analysis of the deposited data

Results flagged for a closer look

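P2ry6, the receptor for uridine diphosphate, was singled out because the genotype effect in ALP differed from that in CMP by the test of the difference itself, 7.20 on the log2 scale (SE 0.48, adjusted p = 0.0190 by limma). Both knockout arrays lay above both wild-type arrays in ALP and below them in CMP. The difference kept its direction in all 15 alternatives, from 2.27 to 7.47, and passed the threshold in 7 of them. Only neqc (4.81) and median scaling (2.27) could have turned this direction. The other settings used the same log2 values, and leaving out an array cannot turn a difference where groups do not overlap. Wild-type ALP and knockout CMP did not detect the gene, so the size is uncertain.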

How the results depend on the processing

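The 13 genes of the ALP comparison became 22 with neqc background correction, 21 with an intensity trend and robust fitting, 3 with array weights and 0 with the 4 ALP arrays alone, by limma, where 905 reached an unadjusted p under 0.05. They were 12 with median scaling, 11 with no filter and 14 with the stricter filter, and 12, 5, 11, 13 and 11 of the 13 were shared with neqc, median scaling, no filter, the stricter filter and the trend. With the replicate number as a block 0 genes passed by limma, with a smallest adjusted p of 0.064 and 1189 genes at an unadjusted p under 0.05, and the count for the difference between ALP and CMP was 0 too (734 unadjusted). Same-numbered arrays correlated at 0.00717 in their deviations between the ALP groups, and from -0.111 to 0.0725 over all pairs of groups. With 2 arrays a group these values cannot show whether the numbers mark a pairing. Leaving out 1 array gave 0 to 505 genes in ALP and 0 to 2 for the difference. That difference count, 1 gene, became 10 with median scaling, 3 with no filter, 2 with the stricter filter and 6 with the trend, and was 1 with neqc and with array weights. The cause of these moves was not tested.

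Of the single-gene values under the alternatives, 1743 kept their direction and side of the threshold, 137 lost the threshold, 41 reached it and 10 turned sign. Id2 was -0.20 with neqc and -0.10 with median scaling, and Lgals3 -0.03 with median scaling. Leaving out 1 array gave ranges of -0.09 to 0.37 for Id2, -0.07 to 0.19 for Lgals3 (-0.04 without knockout array 1), -3.35 to 0.47 for Ccl5, -2.34 to 0.25 for Ceacam1, -0.56 to 1.57 for Il2rb and -0.24 to 1.16 for Emcn. A lone array left in a group was assumed to vary like the other groups. List medians moved by more than the spread between replicates in 36 of their values and by less in 428. No filter, the ALP arrays alone, array weights, the trend, the block and leaving out a CMP array keep every ALP change as it was. In these settings no median could move and no sign could turn, so these tallies include values fixed in advance and do not measure stability. The planned slide block could not be fitted, because no slide is recorded. The arrays are few, undetected levels give bounds only, and a difference near the background cannot be sized.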

Other observations

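Genes of natural killer and innate lymphoid cells had 8 of 23 members tested, a median of -0.27 in ALP (0.06 without wild-type ALP array 2), and 0 past the threshold. Ccl5, a chemokine of activated lymphocytes, was at 3.21 and 7.03 in wild-type ALP and at 3.81 and 3.55 in knockout ALP, so array 2 of the wild type stood alone. Sdc1, the plasma cell marker syndecan, showed the same layout, at 3.70 and 7.21 against 3.73 and 3.46. Sirpa, a receptor of macrophages and dendritic cells, had wild-type levels of 7.66 and 5.49 with the knockout at 7.48 and 8.04. In each of these genes the genotypes overlapped.

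Dpp4, a surface peptidase of dendritic and T cells, was at 7.51 and 8.77 in wild-type ALP and 6.80 and 6.70 in knockout ALP (change -1.39, SE 0.75, adjusted p = 0.504 by limma). Nr4a2, an orphan nuclear receptor, was at 6.51 and 5.01 in the wild type and was detected on neither knockout array. Ly6c1, a surface antigen of monocytes and other cells, was at 9.09 and 9.55 against 7.64 and 7.39 (change -1.80, SE 0.55, adjusted p = 0.253 by limma). Nr4a2 and Ly6c1 are named after their values were seen.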
